A study of Homo sapiens with 5 samples.

Results

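ITGA4, RCC1, PPP1R10 and HMGB1 are 4 of 19974 protein-coding genes on chromosomes 1 to 22 and X. They were taken up because their own strand held many called transcription start sites in HUDEP-2 cells and because none of them is a haemoglobin, haem, iron or red cell membrane gene. All calls inside the genes or within 20 kb of them were read, which gave 93 of 28159 calls. The genes were thus chosen by their number of own-strand calls in these lists, which is given as a description with no test.

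PRO-seq (precision run-on sequencing), in which engaged polymerases in isolated nuclei add biotin-labelled nucleotides to the RNA they are making, was performed in HUDEP-2, an immortalised human erythroid progenitor line. The labels give 2 libraries of wild-type cells. They also give 3 libraries of sg1617-edited single-cell clones, which had gained 1 bp or lost 13 or 15 bp at the BCL11A enhancer. Each edited genotype is a single clone and a single library. The 2 call lists analysed here were made from 1 alignment and carry no column per library, so edited and wild-type cells were not compared and no value has a replicate error. A call is the position at which the program TSScall placed a start site from the 5′ ends of nascent RNA; neither read numbers nor library depth can be read from the lists, and whether transcription began at each call was not established. Markers of the line were as labelled: all 10 genes of an erythroid list had a call at an end of the gene (42.2% of all protein-coding genes did), among them GATA1, KLF1, ALAS2 and TFRC, against 0 of 7 lymphoid, 0 of 6 myeloid and 0 of 5 megakaryocyte markers. Of those 18 other markers only ITGA2B held any call, 1 on the strand opposite to the gene. The share of all protein-coding genes that held any call was not counted.

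The 4 genes belong to different pathways. ITGA4 encodes the alpha chain of an integrin that pairs with the products of ITGB1 or ITGB7 and binds VCAM1 and fibronectin; it is also found on erythroid progenitors, so the gene is outside the red cell lists but not foreign to the lineage. RCC1 encodes the chromatin-bound exchange factor that loads Ran with GTP, which drives nuclear transport and spindle assembly. PPP1R10 encodes PNUTS, which holds protein phosphatase 1 in the nucleus and slows RNA polymerase II past the cleavage site. HMGB1 encodes an abundant DNA-bending chromatin protein that acts as an alarm signal outside the cell. At most active promoters polymerases initiate in both directions, so a call on the gene's strand is often accompanied by a call on the other strand just upstream, here named its partner when it lay within 1000 bp.

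The promoter stretches that held a call near an annotated start are shown, so that the calls can be set against that start; the leading call of HMGB1, at its outer start, lay outside such a stretch. They are RefSeq sequences of GRCh38.p14, written 5′ to 3′ on the gene's strand, from 100 bases before the annotated start through the first 30 bases from it. The capital marks the base called on the gene's strand. All 4 genes were matched by symbol in the RefSeq promoter table, with 7 annotated starts between them.
ITGA4, chr2:181457286-181457415, forward strand: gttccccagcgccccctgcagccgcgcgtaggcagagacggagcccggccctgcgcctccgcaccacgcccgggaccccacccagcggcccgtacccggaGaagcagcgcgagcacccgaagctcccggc
RCC1, outer start, chr1:28505943-28506072, forward strand: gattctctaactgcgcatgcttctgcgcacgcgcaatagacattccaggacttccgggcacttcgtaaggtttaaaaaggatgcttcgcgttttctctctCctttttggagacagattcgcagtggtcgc
RCC1, inner start, chr1:28518126-28518255, forward strand: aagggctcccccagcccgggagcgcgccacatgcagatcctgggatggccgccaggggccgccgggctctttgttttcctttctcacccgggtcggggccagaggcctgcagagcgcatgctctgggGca
PPP1R10, chr6:30617214-30617343, reverse strand: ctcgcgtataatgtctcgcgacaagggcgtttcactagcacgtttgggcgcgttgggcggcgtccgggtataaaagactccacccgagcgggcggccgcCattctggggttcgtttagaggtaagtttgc
HMGB1, inner start, chr13:30465907-30466036, reverse strand: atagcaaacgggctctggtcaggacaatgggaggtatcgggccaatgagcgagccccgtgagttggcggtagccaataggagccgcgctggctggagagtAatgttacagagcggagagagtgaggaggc

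The calls of ITGA4, of the outer start of RCC1 and of the inner start of HMGB1 fell on the annotated base, an offset of 0 bp. In PPP1R10 the offset was -1 bp, that is, 1 base upstream, on a C that an A follows. At the inner start of RCC1 the call lay 27 bp downstream. Whole windows of 300 bases, from 250 before to 50 after the start, were searched on both strands for the TATA box TATAAA, the CCAAT box, the GC box GGGCGG, the E-box CACGTG and the GATA motif AGATAA. None of these motifs contains another, and matches could overlap only at their edges. TATAAA was found in 11.6% of 34789 such windows and, among these genes, in PPP1R10, where it lay 32 to 27 bases before the start, ahead of the called base. The PPP1R10 window also held CCAAT at 2 places and GGGCGG at 3 (34.6% and 44.9% of all windows held these). The inner HMGB1 start had CCAAT at 3 places, the closest 28 to 24 bases before the start. The ITGA4 window and the outer RCC1 window held none of these 5 motifs, and the inner RCC1 window held CACGTG (7.24% of all windows). AGATAA was in 0 of the 7 windows and in 10.4% of all. GC content was 72.3% in the ITGA4 window, 51.7% in the outer and 65.3% in the inner RCC1 window, and 58.7% in PPP1R10. In HMGB1 it was 67.7% at the outer start, 58.7% at the called inner start and 87% at the start at 30465240, whose window held GGGCGG at 9 places. All windows had a median of 58.7% over all windows (quartiles 47.0 and 68.0%).

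The windows also bear on how the deposited positions should be read. Over 8068 calls in promoter windows of their own strand, the bases CA, the common start-site pair in which RNA begins at the A, lay at the called base and the base after it in 33.7%. At the base before and the called base they lay in 1.51%. At annotated starts 29.7% had CA at the base before and the start itself. The calls therefore lay 1 base upstream of the A of a CA pair more often than on it; the cause was not tested. The offsets given above are for positions as deposited, and each would change by 1 base if the positions were read 1 base downstream. Gaps between calls of 1 strand do not depend on this, and with every position moved 1 base downstream the call counts of all 4 genes stayed as they were.

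In all 4 genes an own-strand call lay within 500 bp of the gene's outer start, and 42.2% of protein-coding genes had such a call at an end. The 4 were chosen by their rank among called genes, so their having such a call was fixed beforehand. Own-strand calls were counted in the gene and up to 500 bp upstream of it. ITGA4 had 24, RCC1 18, PPP1R10 15 and HMGB1 14. Among 8237 genes called at 1 end, 0.109% had 14 or more and 1.44% had 5 or more. With the strand and all starts of the RefSeq promoter table in place of the outer ends, 47.9% of 15812 genes with a listed strand were called, all 4 of these among them, and 1.52% of the called genes had 5 or more. HMGB1, with 14, stood just above MYB, with 12. BRD2 and BEST1, lower down, were counted with 8 each. The RefSeq promoter table listed no strand for BEST1, so its strand was taken from its called end. Its 8 calls were reverse calls, 4 of them inside the overlapping gene FTH1. Whether any of the 8 lay on the strand of BEST1 was not established. Set against length the order turned: PPP1R10 had 0.891 calls per kb, RCC1 0.546, ITGA4 0.294 and HMGB1 0.0870, which placed them 134th, 304th, 728th and 2458th by density.

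**Figure D1:**
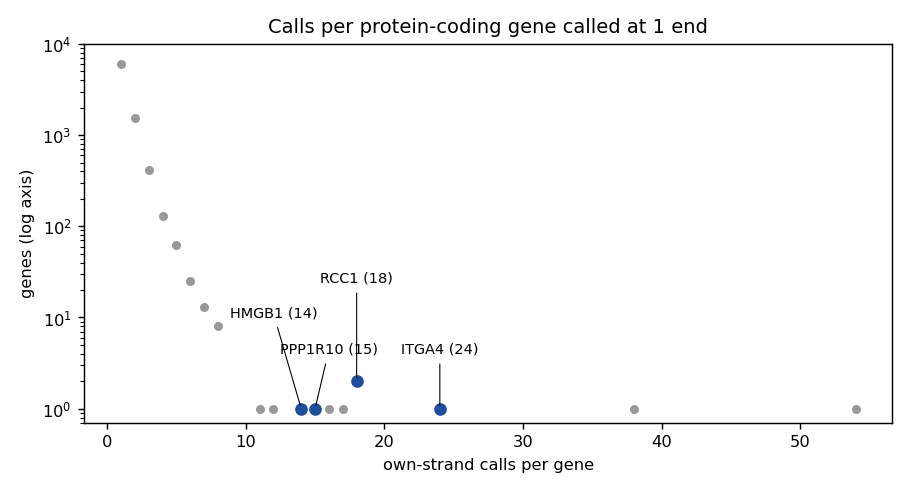
Number of protein-coding genes called at 1 end (vertical, log axis) against own-strand calls per gene (horizontal); grey points are all 8237 genes and blue points mark the counts of the 4 named genes. HMGB1 at 14, PPP1R10 at 15, RCC1 at 18 and ITGA4 at 24 lie in the sparse tail, and the point at 18 stands for RCC1 and MYC together.

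ITGA4 (gene ID 3676) spans 81736 bp on hg38 chromosome 2, from 181457205 to 181538940, on the forward strand. Its 24 calls fell into groups with long empty stretches between them. The first group held 10 calls in 6491 bp, from 181457386 to 181463876, with a median gap of 735 bp and a smallest gap of 253 bp. Beyond it the gene was empty for 10054 bp. The next 2 groups held 3 calls each, from 181473930 to 181478040 and from 181489064 to 181491560, and a single call stood at 181498339. After the longest empty stretch, 19771 bp, a dense group of 7 calls ran from 181518110 to 181522748, 60905 to 65543 bp into the gene, with a median gap of 460.5 bp. Its gaps were as short as 265 bp, close to the shortest of the first group.

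No own-strand call lay in the last 16192 bp of ITGA4, but 4 followed past the gene's end. They stood 1578, 2205, 2595 and 2978 bp beyond it, at 181540518, 181541145, 181541535 and 181541918. This stretch lies inside CERKL, a gene of the reverse strand whose span (181536672 to 181657105) overlaps the end of ITGA4. The 4 calls are thus antisense to CERKL, and CERKL held no reverse call inside its span. A single forward call lay 9990 bp upstream of ITGA4, at 181447215.

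All 3 opposite-strand calls of ITGA4 were near its start. The reverse call at 181457242 lay 144 bp upstream of the leading call. A second, at 181457904, lay 217 bp upstream of the forward call at 181458121, and the last, at 181461024, lay 169 bp upstream of the call at 181461193. Counting each forward call with a reverse call within 1000 bp upstream, 6 of 24 had a partner (25%, Wilson 95% interval 12 to 44.9%), and these 6 shared the 3 reverse calls. None of the 14 calls beyond the first 10 kb had a partner.

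RCC1 (gene ID 1104) spans 32947 bp on chromosome 1, from 28506043 to 28538989, on the forward strand. Its 18 calls ended after 37.1% of that length. The first lay on the outer start, at 28506043, and the last at 28518253, which leaves 20736 bp with no own-strand call. The longest stretch with no gap over 1000 bp held 11 calls, from 28508681 to 28512736. It began 2638 bp into the gene, after a gap of 1148 bp. The last 3 gaps, before 28514956, 28516638 and 28518253, were 2220, 1682 and 1615 bp.

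Most of the RCC1 run lay over another gene of the same strand. SNHG3, a non-coding host of small nucleolar RNAs, spans 28505943 to 28510892 and begins 100 bases before RCC1's outer start. It held 10 of the 18 calls, at 2.06 per kb and with a median gap of 476 bp. SNORA73A (28507365 to 28507571) and SNORA73B (28508558 to 28508762), nucleolar RNAs used in ribosomal RNA processing, each contained 1 of these calls, at 28507533 and 28508681. A further 7 calls (0.955 per kb) lay between the end of SNHG3 and RCC1's inner start at 28518226. From the inner start to the end of RCC1 there was 1 call in 20764 bp, the one 27 bp past that start. Since SNHG3 and RCC1 share strand and start region, the lists cannot tell which transcript the calls belong to; without the calls inside SNHG3, 8 remained.

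Opposite-strand calls at RCC1 were few. A reverse call at 28505817 lay 226 bp upstream of the leading call and 763 bp upstream of the next, so 2 of 18 own-strand calls had a partner (11.1%, Wilson 95% interval 3.10 to 32.8%). The other reverse call in the gene, at 28518610, lay downstream of the call at the inner start, facing it, and had no partner of its own. Past the gene, within 20 kb, the single forward call at 28553087 was 14098 bp beyond the end and 2 bp inside TRNAU1AP, a selenocysteine tRNA-associated protein gene that begins at 28553085. No call preceded it past the end of RCC1 on the forward strand.

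PPP1R10 (gene ID 5514) spans 16831 bp on chromosome 6, from 30600413 to 30617243, on the reverse strand. It had the most even run of the 4 genes: 14 of its 15 calls, from 30617244 down to 30612288, formed a chain of 4957 bp with no gap over 1000 bp. Its gaps had a median of 336.5 bp, and 6 of the 14 did not exceed 300 bp. Between 30613734 and 30612957 the 3 successive gaps were 257, 260 and 260 bp. A last call at 30610420 lay 6823 bp into the gene, 1868 bp after the one before. The remaining 10007 bp, 59.5% of the gene, held no call on either strand, and no reverse call lay within 20 kb past its end.

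PPP1R10 faces MRPS18B, a mitochondrial ribosomal protein gene that begins at 30617840 on the forward strand, 597 bp away. The MRPS18B call, at 30617839, had a reverse partner of its own at 30617777, only 62 bp away. That reverse call lay 534 bp upstream of PPP1R10's start, outside the window in which calls were counted. The leading PPP1R10 call lay 595 bp from the MRPS18B call, and thus counted as partnered within 1000 bp. Inside the gene there was 1 forward call, at 30615106, placed 102 bp upstream of the reverse call at 30615004 and within 1000 bp of 2 more. In all 4 of 15 calls had a partner (26.7%, Wilson 95% interval 10.9 to 52.0%), but 73.3% had one when the window was 2000 bp.

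HMGB1 (gene ID 3146) spans 160894 bp on chromosome 13, from 30456704 to 30617597, on the reverse strand, with annotated starts at 30617597, 30465936 and 30465240. Its 14 calls lay mostly toward the extremes of that span. At the outer start were calls at 30617544 and 30616996, which are 53 and 601 bp into the gene. They were followed by 112826 bp with none. Calls at 30504170 and 30496049 stood alone in a stretch of 149161 bp between the start regions. The inner start at 30465936 was called on its base, preceded by reverse calls at 30467140 and 30466871, while the start at 30465240 had no call within 500 bp.

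The dense part of HMGB1 was at its far end. After the inner start 5149 bp were empty, and then 7 calls followed in the last 4083 bp of the gene, at 30460787, 30460208, 30459426, 30459118, 30457986, 30457575 and 30457208. Their gaps ranged from 308 to 1132 bp. A further reverse call, at 30456310, lay 394 bp past the end. From the inner start to the gene's end the density was 0.866 calls per kb, close to that of PPP1R10 over its whole length (0.891), although HMGB1 as annotated had the lowest of the 4. HMGB1 has many processed copies in the genome: 50 pseudogenes named for it are annotated on these chromosomes, and 3 of them, HMGB1P1, HMGB1P5 and HMGB1P10, held a call. The share of all pseudogenes that held a call was not counted, so the 3 have no background beside them. How reads that match several copies were placed is not given in the sources used here, so the calls of HMGB1 are uncertain to that extent.

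Opposite-strand calls at HMGB1 lay at both start regions and nowhere else in the gene. At the inner start, forward calls at 30466117 and 30466371 lay 181 and 435 bp upstream of the called base. At the outer start, the forward call at 30617107 was 111 bp upstream of the reverse call at 30616996, and that at 30617678 was 134 bp upstream of the one at 30617544. The forward call at 30617953 lay just inside USPL1, a SUMO protease gene that begins at 30617920 in the other direction. In all 3 of 14 reverse calls had a partner (21.4%, Wilson 95% interval 7.57 to 47.6%), and none of the 7 calls at the far end did.

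**Figure D2:**
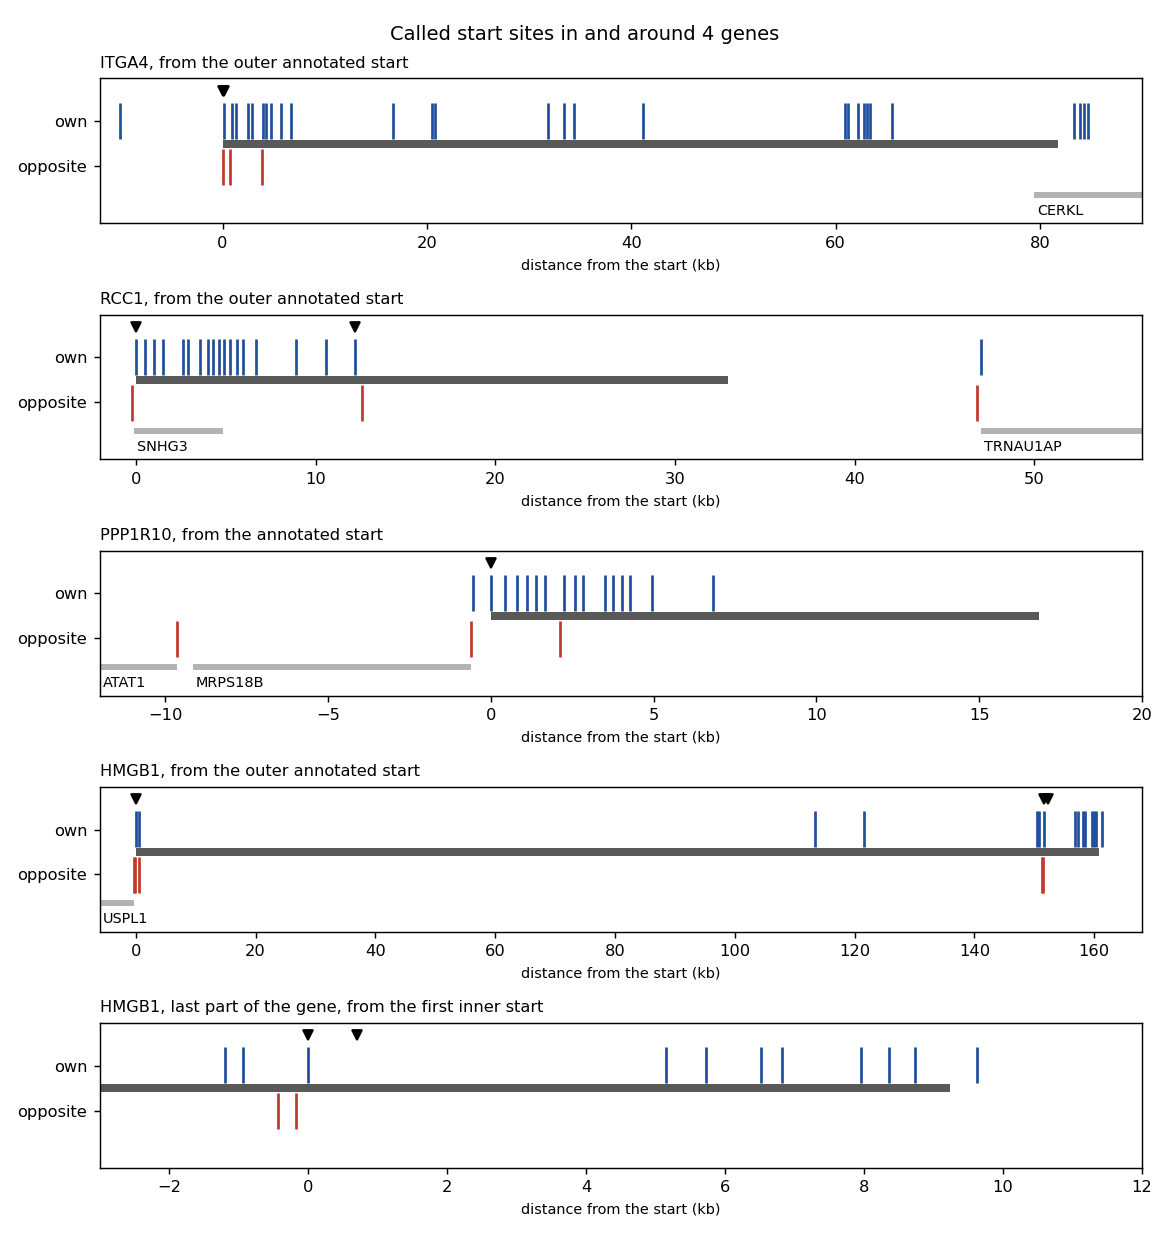
Calls on the gene's own strand (blue, above) and on the opposite strand (red, below) by distance from the start in kb; dark bars are the genes, pale bars neighbouring genes, and triangles the outer end of the gene and its annotated starts. RCC1 and PPP1R10 calls end 12210 and 6823 bp from the start, ITGA4 calls come in groups and resume 1578 bp past the end, and 7 HMGB1 calls crowd into its last 4083 bp.

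**Figure D3:**
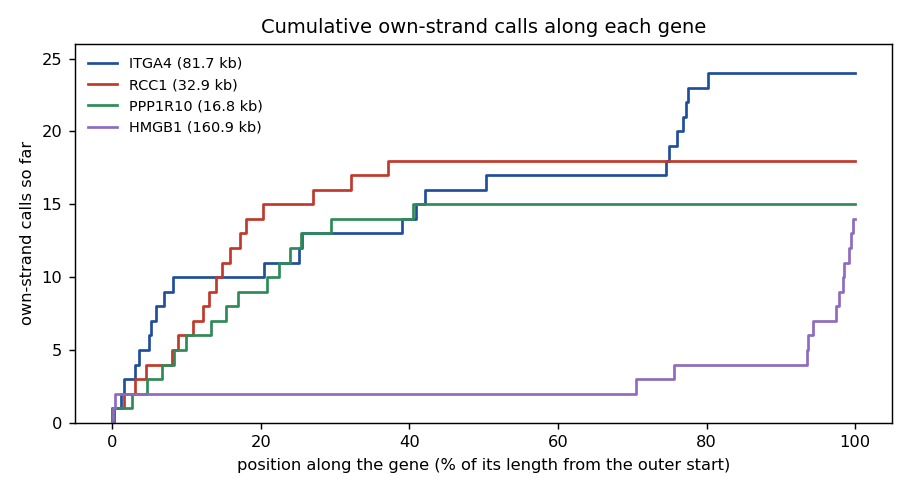
Own-strand calls counted from the outer start (vertical) against position as a percentage of gene length (horizontal), 1 line per gene. The last call stands at 37.1% of RCC1, 40.5% of PPP1R10, 80.2% of ITGA4 and 99.7% of HMGB1.

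Taking the 4 genes side by side with the other 115 genes that had 5 or more own-strand calls, their gaps were not all short. The median gap per gene was 336.5 bp in PPP1R10 and 476 bp in RCC1, below the lower quartile of those genes, 518.5 bp. It was 782 bp in HMGB1 and 940 bp in ITGA4, between the median of 733 bp and the upper quartile of 1351 bp. In the 7 other genes called at 1 outer end with 10 or more calls, the median was 449 bp, with quartiles at 358 and 647 bp. PPP1R10 lay below that range, RCC1 within it, and HMGB1 and ITGA4 above it. Of all 67 gaps in the 4 genes, 31 were at most 500 bp (46.3%), as were 42.2% of the 666 gaps in the other 115 genes and 12.2% of all gaps between neighbouring calls of 1 strand. Gaps follow from the number of calls and the span, and the genes were chosen by that number. These shares are therefore a description with no test. The shortest gap in each gene was 253 bp in ITGA4, 257 in PPP1R10, 259 in RCC1 and 269 in HMGB1. Over all calls only 2 gaps were under 250 bp, so these shortest gaps stand at the limit below which the lists hold almost no gap. Whether the caller set that limit was not tested.

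**Figure D4:**
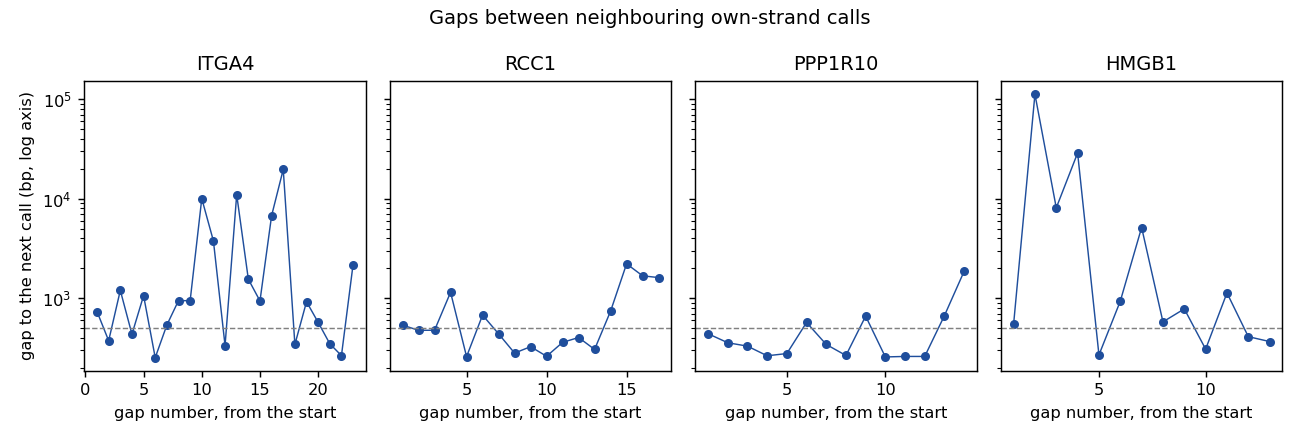
Gap from each own-strand call to the next (vertical, bp, log axis) in the order of transcription (horizontal), with a dashed line at 500 bp. Of the gaps in PPP1R10 and RCC1, 10 each lie at or below the line and the longest are 1868 and 2220 bp, while ITGA4 and HMGB1 alternate short gaps with gaps of up to 19771 and 112826 bp.

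The runs reached different depths into the genes. The last own-strand call stood at 37.1% of the length of RCC1 and 40.5% of PPP1R10, 80.2% of ITGA4 and 99.7% of HMGB1. In the 7 other genes called at 1 outer end with 10 or more calls it stood between 89.4 and 99.3%, beyond the last calls of RCC1, PPP1R10 and ITGA4 and before that of HMGB1. With the strand and starts of the promoter table, NFIX, at 99.8%, ended later than HMGB1. Over the 115 genes with 5 or more calls the median was 73.5%, with quartiles at 33.8 and 94.3%, a range that holds RCC1, PPP1R10 and ITGA4. Past the end, within 5 kb, 2 of the 4 genes had an own-strand call (ITGA4 and HMGB1). The same was true of 13.8% of all genes called at 1 end and of 44 of the 115 genes.

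The leading calls all had partners, and few of the later ones did. The first own-strand call had an opposite-strand partner in 4 of 4 genes, at 144 bp in ITGA4, 226 in RCC1, 595 in PPP1R10 and 134 in HMGB1, and in 76 of the other 115 genes. The PPP1R10 partner is the call at the start of MRPS18B, which had a nearer reverse partner of its own, and would not count within 500 bp. Of the later calls 11 of 67 had one (16.4%), against 256 of 666 (38.4%) in the other genes. Among all calls the share was 57.6%. The calls of a run share opposite-strand calls and are not independent, and the run itself was how the genes were chosen, so these shares are given with no test.

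By calls per kb, the nearest of the other genes called at 1 outer end with 10 or more calls were, for ITGA4, MYB (0.317), a transcription factor of progenitors, and SLC25A37 (0.344), the mitochondrial iron importer. For RCC1, SLC25A37 was among the nearest. For PPP1R10 they were CA1 (1.07), carbonic anhydrase, and TFRC (1.16), the transferrin receptor, and for HMGB1 they were ITGA4 (0.294) and MYB. Likeness was measured over 11 genes by density alone, and it depends on that rule. With the strand and starts of the promoter table, CD36 (0.285) was nearer to ITGA4 than MYB was. NFIX (0.106), GSE1 (0.0237), GFI1B (0.230) and CD36 were nearer to HMGB1 than ITGA4 and MYB were. CD36, NFIX, GSE1 and GFI1B were named after their values were seen. The nearest genes still differed in spacing: MYB, at nearly the density of ITGA4, had a median gap of 366 bp in place of 940 bp.

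Other genes of the same families were counted by the same rules. Each family list holds 1 of the genes that were chosen for their many calls, so that gene's having 5 or more was fixed beforehand. The 1.44% given beside such counts is a share of genes called at 1 end, whereas the lists also hold genes that were not called. The share of all protein-coding genes without any call was not counted. Numbers of members without a call therefore stand with no background in all of these lists, and the 42.2% does not serve as one. Of 26 integrin subunit genes, 5 had a call at an outer end (42.2% of protein-coding genes did), and ITGA4 was the only member with 5 or more own-strand calls (1.44% of genes called at 1 end had as many). ITGB1, which encodes the usual beta partner of ITGA4, had 3 calls with a median gap of 17974 bp, and ITGA5, ITGA7 and ITGAV were also called. No call of either strand was found in or within 500 bp of 17 members, namely ITGA2, ITGA3, ITGA6, ITGA8, ITGA9, ITGA10, ITGA11, ITGAD, ITGAL, ITGAM, ITGAX, ITGB3, ITGB4, ITGB5, ITGB6, ITGB7 and ITGB8. ITGB7, the other beta partner of ITGA4, was thus without a call.

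Of 15 genes of the Ran cycle and nuclear transport, 12 were called, against 42.2% of all protein-coding genes, and 0 were without any call. RCC1 was the only member with 5 or more calls (1.44% of genes called at 1 end), and the list's median was 1. RAN itself had 1 call, 29 bp past its annotated start, RCC2 had 2 and XPO1, the main nuclear export receptor, had 1. Of 13 genes of the PNUTS phosphatase complex and of transcription termination, 12 were called, where the share of all protein-coding genes was 42.2%, and 0 were without a call. WDR82 and TOX4, the subunits that join PNUTS, had 2 and 1 calls, and the phosphatase genes PPP1CA, PPP1CB and PPP1CC had 1 each. Besides PPP1R10 only PCF11, a cleavage and termination factor, had 5 or more (1.44% of genes called at 1 end), with 6 calls and a median gap of 433 bp. XRN2, the nuclease of termination, held a single opposite-strand call.

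Of 11 high mobility group genes, 7 were called (42.2% of all protein-coding genes), and HMGB1 alone had 5 or more own-strand calls (1.44% of genes called at 1 end). HMGB2, a close relative of HMGB1, had 1 call, and HMGA1, which binds AT-rich DNA, had 3 with a median gap of 360.5 bp. HMGB4 and HMGA2 had no call. HMGN1, HMGN2 and HMGN3, which bind nucleosomes, had 1 each. Counts in these lists depend on length as well as on calls, and per kb HMGB2 (0.335) and HMGA1 (0.321) both stood above HMGB1 (0.0870).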

How the data were processed

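PRO-seq was performed on 5 libraries. The authors deposited 2 BED lists of start sites for the series, with 14124 forward and 14159 reverse calls. Per the file headers they were called with TSScall on 1 sorted, de-duplicated alignment of HUDEP-2 cells, which is not a sample title. Per the submitters' processing notes the build was hg38 and the tools included deepTools 3.5.4, SAMtools 1.17, Picard and BWA 0.7.16a. The settings of TSScall are not stated in them. Every interval was 1 base long, and its end was taken as the 1-based position. The score column that the authors deposited holds only 0 (28283 calls), which leaves no ranking and no stricter threshold to try.

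Genes came from RefSeq GRCh38.p14, which shares hg38's chromosome coordinates; exons were not used. Called genes had a forward call at most 500 bp from the left end or a reverse call at most 500 bp from the right end; where only 1 end met this, it set the strand. In the family lists the strand came from the RefSeq promoter table, or from the called end where that table listed none. No test was run, because there is 1 list and the number of calls chose the genes. Wilson intervals cover counting only. The genes and lists were chosen with earlier results of these data known. Named were the 4 genes, their neighbours that bear on a call, the top genes by calls and those next below, the nearest in density, and list members with 5 or more calls or none. Other names were chosen after their values were seen, and 1 gene that this rule would name is not reported here. Code was checked on simulated call lists. Alternatives changed the upstream allowance, merging, partner window, gap limit, end window and ranking. The software was Python 3.11.15 with matplotlib 3.10.9, scipy 1.17.1, pandas 2.3.3 and numpy 2.4.6.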

Additional observations from a re-analysis of the deposited data

How the results depend on the processing

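Of 60 values under alternatives, 47 stayed within 1.5 times the reported one or, for shares, within its interval, and 13 moved. With calls of 1 strand within 500 bp merged, RCC1 fell from 18 to 8 calls, PPP1R10 from 15 to 5 and the genes with 5 or more calls from 119 to 44, while ITGA4 had 17 and HMGB1 10. PPP1R10 then ranked 16th in place of 8th and HMGB1 4th in place of 9th. Ranked by calls per kb, ITGA4 moved from rank 3 to 728, RCC1 from 4 to 304, PPP1R10 from 8 to 134 and HMGB1 from 9 to 2458. Without calls inside SNHG3, RCC1 had 8. Past the end of RCC1 the single call left 0 within 5 kb, and 0 when calls at ends of other genes were left out. With partners sought within 2000 bp, the PPP1R10 share was 73.3% in place of 26.7%. Within 500 bp it was 13.3%. The RCC1 share was 5.56% within 500 bp and 22.2% within 2000 bp, in place of 11.1%. For ITGA4 these were 16.7% and 33.3% in place of 25%, and for HMGB1 21.4% throughout. Apart from the 73.3%, these shares counted as unmoved because the intervals are wide, so the tally says little about them. Leaving out calls inside SNHG3, the shift by 1 base and the annotated strand and starts were chosen after seeing the data. No paired analysis was possible because the lists come from 1 alignment and have no column per library. The depth is unknown, so calls missing from a stretch do not show that it was not transcribed.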

Other observations

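Among genes called with the strand and starts of the RefSeq promoter table, ITGA4 ranked 2nd by own-strand calls, RCC1 4th, PPP1R10 6th and HMGB1 7th. Between ITGA4 and RCC1 stood CD36, a scavenger receptor found on erythroid progenitors among other cells, which was not called at an outer end. CD36 had 22 forward calls over 77068 bp on chromosome 7, 0.285 per kb, close to the 0.294 of ITGA4. Its median gap was 431 bp in place of 940 bp. None of the 22 calls had an opposite-strand partner, whereas 6 of the 24 in ITGA4 did, and the last stood at 99.1% of the gene. Both genes had 4 own-strand calls within 5 kb past the end. CD36 was named after its values were seen, and the difference was not tested.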
